A study of Macaca fascicularis with 64 samples.

Results

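The genes described here were imprinted genes, DLK1 first among them, in single pancreatic islet cells of cynomolgus monkeys (Macaca fascicularis). The members were taken from a fixed list of 10 gene symbols, of which the count files held 9 among 21041 macaque genes: DLK1, IGF2, CDKN1C, PLAGL1, PEG3, PEG10, GNAS, MEST and NNAT. MEG3 was not analysed here. The list was chosen with earlier results of these data known. Genomic imprinting leaves a gene active mainly or wholly on the copy from 1 parent, and many imprinted genes act on fetal growth, on cell division and on hormone secretion. DLK1, a membrane protein related to the Notch ligands, is expressed from the paternal copy, CDKN1C from the maternal copy, and PLAGL1 is the gene behind a form of transient neonatal diabetes. The UMI counts carried no information on the parental copy, so imprinting itself was not measured.

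The islets came from the tail part of the pancreas of 8 young monkeys of 4 to 6 years and 8 old monkeys of 18 to 21 years, with 4 females and 4 males at each age. All 16 animals were untreated, without genetic modification, and without signs of diabetes or pancreatic disease. Each monkey was processed on a day of its own, so day and monkey cannot be told apart. Cells were picked by mouth pipette into 4 libraries per monkey, 64 in all, and a UMI (unique molecular identifier) was counted once per original transcript.

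A cell was kept if it held more than 800 macaque genes and more than 10000 UMIs, with spike-ins counted among the UMIs of this filter. This left 5908 of 6141 barcodes, with a median of 65792 UMIs and 4436 genes per cell. The 64 libraries each used the same 96 cell barcodes, and 95 to 96 of them appeared in each library. A library held between 3822204 and 9452325 UMIs of macaque genes. Cells were typed by the highest of 4 hormone genes, GCG for α-cells (4503 cells), INS for β-cells (1219), SST for δ-cells (112) and PPY for PP-cells (74). No other gene entered the typing. For each monkey, the UMIs of all its cells of one type were then added up where there were at least 5 such cells, and the level of a gene is given as CPM, its UMIs divided by all UMIs of that sum and multiplied by 1000000. This gave 16 sums of α-cells, 16 of β-cells, 11 of δ-cells (7 young, 4 old) and 6 of PP-cells (2 young, 4 old).

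The types carried their own markers. IAPP, the islet amyloid polypeptide of β-cells, was 939 to 4682 CPM in β-cells and 12.7 to 131 CPM in α-cells, IRX2, a transcription factor of α-cells, was 287 to 734 CPM in α-cells and 17.4 to 82.1 CPM in β-cells, and HHEX, one of δ-cells, was 51.2 to 546 CPM in δ-cells and at most 14.0 CPM elsewhere. SERTM1, the marker fixed for PP-cells beside PPY, was 0 to 76.7 CPM in them with a median of 3.35 CPM, so PP-cells rest on PPY alone. The types were also not free of each other's RNA. In β-cells the GCG level was 21.01% to 46.9% of that in α-cells of the same monkey (median 27.7%), and in α-cells the INS level was 2.24% to 27.3% of that in β-cells (median 10.1%). A clear hormone call, with the highest hormone at least 4 times the second and at least 10000 CPM, was met by 4202 of 4503 α-cells, 384 of 1219 β-cells and 40 of 112 δ-cells. Markers of cells outside the endocrine islet, added up by kind of cell, had medians of at most 36.0 CPM over the monkeys of a type. In single sums the 4 stellate markers together reached at most 162 CPM, the 4 endothelial markers 92.0 CPM, the 4 immune markers 220 CPM and the 3 duct markers 155 CPM. The single acinar marker at hand, CPA1, reached 558 CPM in 1 sum of α-cells. A cell took the type of its highest hormone at any level, so cells outside the 4 types were not set apart. Free RNA and doublets were not separated from expression, and each difference between types below is given with its value in clear cells where the call changed, apart from PP-cells, of which no monkey kept 5 clear cells.

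DLK1 was the member that varied most between monkeys in β- and in δ-cells. In β-cells it was high in some monkeys and without a single UMI in others. Among the young monkeys the β-cell level was 1073 CPM in female 3, 288 CPM in male 2, 247 CPM in female 1, 109 CPM in male 1 and 40.5 CPM in female 4, and no DLK1 UMI was counted in female 2, male 3 and male 4. Among the old monkeys it was 1542 CPM in female 3, 1124 CPM in male 4, 471 CPM in female 4, 5.41 CPM in male 1 and 1.02 CPM in female 2, and none was counted in female 1, male 2 and male 3. High and empty monkeys thus stood in both age groups and both sexes. In 5 of the 6 monkeys without a UMI, 3 UMIs would have given between 0.219 and 1.22 CPM, far under the levels of the high monkeys. In young female 2, with 11 β-cells, they would have given 4.82 CPM.

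The standard deviation of DLK1 over the 16 β-cell sums was 4.38 on the log2(CPM + 1) scale. This ranked 1 among the 7914 genes with a mean of at least 10 CPM in β-cells, whose median standard deviation was 0.57. In δ-cells it was 3.43 over 11 monkeys and ranked 5 of 8214 genes. GNAS, by contrast, had a standard deviation of 0.28 in β-cells (rank 7484) and MEST one of 0.32 (rank 7067).

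Within a monkey, DLK1 came from few β-cells. Of 1219 β-cells, 348 (28.5%) had at least 1 DLK1 UMI, at a median depth of 74425 UMIs, against 852 of 4503 α-cells (18.9%), at a median depth of 64894. Old female 4 gave 178 of the 348 β-cells, and without it, a setting chosen after seeing the data, the shares were 16.6% of β-cells and 16.3% of α-cells. Only 78 β-cells (6.40%), in 9 monkeys, held 10 or more, and they carried 96.7% of the 21300 DLK1 UMIs of the type. In old male 4, 1 of 22 β-cells held 1818 of 1857 UMIs (97.9%), and without that cell the level of this monkey fell to 28.2 CPM. In young male 1, 1 of 76 cells held 93.1% (7.74 CPM without it), and in young female 4, 1 of 87 cells held 91.1% (3.65 CPM without it). In 4 other monkeys the DLK1 cells were more numerous. Old female 4 had 34 of 194 β-cells with 10 or more UMIs, young male 2 had 17 of 127, and old female 3 and young female 3 had 8 of 28 each. In these 4 monkeys such cells were found in all 4 libraries.

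**Figure D1:**
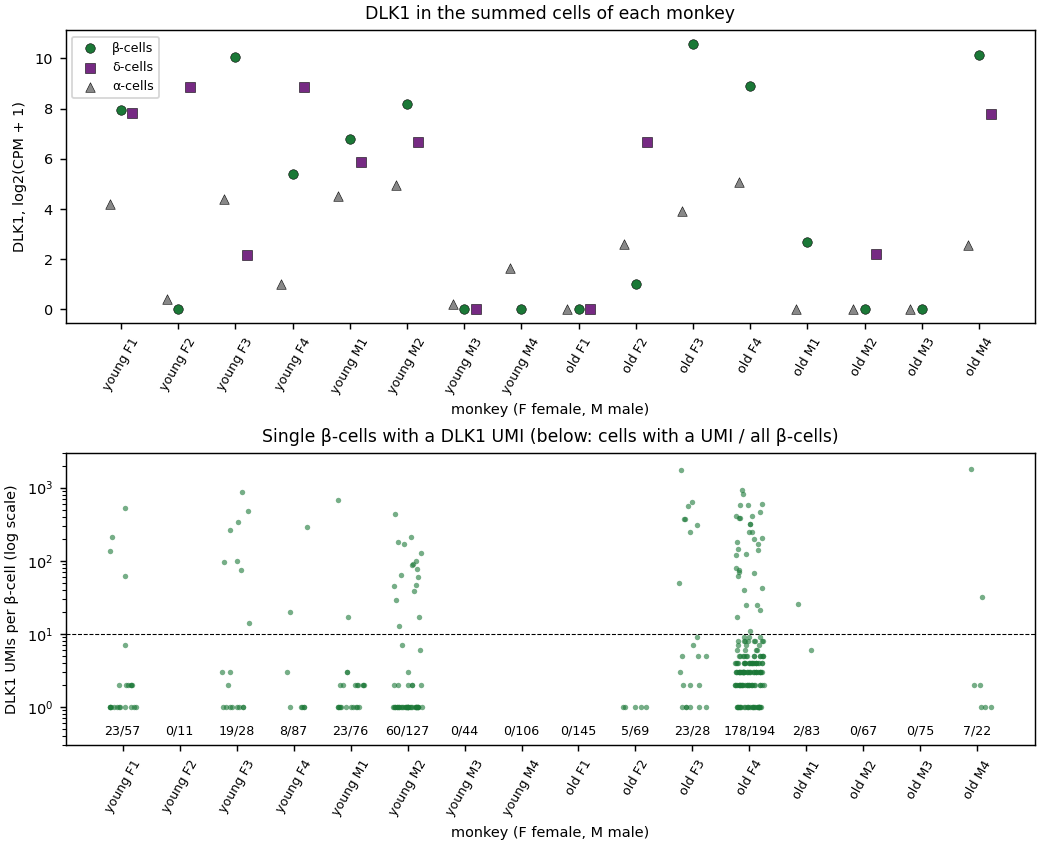
DLK1 by monkey. Upper panel, log2(CPM + 1) in the summed β-cells (circles), δ-cells (squares) and α-cells (triangles) of the 16 monkeys (x axis), where 0 means no UMI. Lower panel, DLK1 UMIs per β-cell on a log axis for cells with at least 1 UMI, with a dashed line at 10 UMIs and, under each monkey, the number of cells with a UMI over all its β-cells. The β-cell level was 0 in 6 monkeys and 1542 CPM in old female 3.

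The 78 β-cells with 10 or more DLK1 UMIs carried β-cell markers that the typing did not use. Their median IAPP level was 1752 CPM against 2243 CPM in the 624 other β-cells of the same 9 monkeys, and their median MAFA level, a β-cell transcription factor, was 72.3 against 58.8 CPM. Their median INS level was 58429 CPM, against 72159 CPM. Their median GCG level was 16279 CPM against 20353 CPM, and their median depth was 87554 against 71517 UMIs. A stellate marker at 10 or more UMIs was found 2 times in the DLK1 cells and 24 times in the others. These values describe cells chosen by their DLK1 count and were not tested. Of the 78 cells, 28 met the clear hormone call.

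In δ-cells DLK1 was 466 CPM in young female 4, 460 CPM in young female 2, 229 CPM in young female 1, 219 CPM in old male 4, 102 CPM in young male 2, 100 CPM in old female 2 and 58.2 CPM in young male 1. It was 3.60 CPM in old male 2 and 3.48 CPM in young female 3, and no UMI was counted in old female 1 and young male 3. The δ-cells of a monkey did not follow its β-cells throughout: young female 2 had 460 CPM in δ-cells and no UMI in β-cells, and young female 3 had 1073 CPM in β-cells and 3.48 CPM in δ-cells. Again few cells carried the transcript. Of 112 δ-cells, 20, in 7 monkeys, held 10 or more UMIs and 93.4% of the 634 counted. The δ-cells per monkey numbered 14 at most, so a single cell could set the level.

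In α-cells DLK1 was between 0 and 32.7 CPM, with a median of 3.51 CPM, and 4 monkeys had no UMI. In the 8 monkeys with over 40 CPM in β-cells, the α-cell level was 0.44% to 19.9% of the β-cell level (median 4.71%). That share was below the share of INS in the same α-cells in 7 of the 8. Among the other monkeys, old female 2 had more DLK1 in α-cells (5.17 CPM) than in β-cells (1.02 CPM), and young female 2, male 3 and male 4 had DLK1 UMIs in α-cells and none in β-cells. A total of 20 α-cells, in 7 monkeys, held 10 or more DLK1 UMIs, and 8 of these met the clear hormone call. In old female 4, 148 of 178 α-cells had a DLK1 UMI, but none had over 11. In PP-cells, 7 UMIs were counted in 74 cells, and no cell held more than 1.

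Over monkeys, DLK1 was higher in β-cells than in α-cells by 3.92 ± 0.78 on the log2 scale (SE, 49 sums in the fit, 15.1-fold), with an adjusted p of 0.000111. Unless another method is named, an adjusted p here and below is that of edgeR's quasi-likelihood test with Benjamini-Hochberg adjustment over all genes tested. For differences between types, the fit was on the sums of all 4 types with the monkey as a block. The SE of a log2 difference is its size divided by the square root of the test's F statistic, not a separately fitted value. DLK1 was higher in β-cells in 9 of the 16 monkeys and lower in 4, and neither type had a UMI in the other 3. In δ-cells it was higher than in α-cells by 4.48 ± 0.94 (22.3-fold, adjusted p 0.000433), in 8 of 11 monkeys. Between δ- and β-cells the difference was 0.56 ± 1.02 (adjusted p 0.753), with δ-cells higher in 4 of 11 monkeys and lower in 5. Both calls were lost in clear hormone cells, where 11 monkeys had enough β-cells and 2 enough δ-cells: the difference from α-cells was then 1.47 in β-cells (adjusted p 0.258) and -0.32 in δ-cells (adjusted p 0.952). In PP-cells, where the 6 sums held 4 UMIs in all, the fitted log2 difference from β-cells was -6.03 ± 1.77 (adjusted p 0.0151) and that from δ-cells -6.59 ± 1.84 (adjusted p 0.0161). PP-cells were lower than β-cells in 2 of 6 monkeys and higher in 1, with medians of 0.667 and 0.511 CPM, and lower than δ-cells in 4 of 5. Old male 4 decided both: without it they were -4.95 (adjusted p 0.0993) and -6.23 (adjusted p 0.0552).

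**Figure D2:**
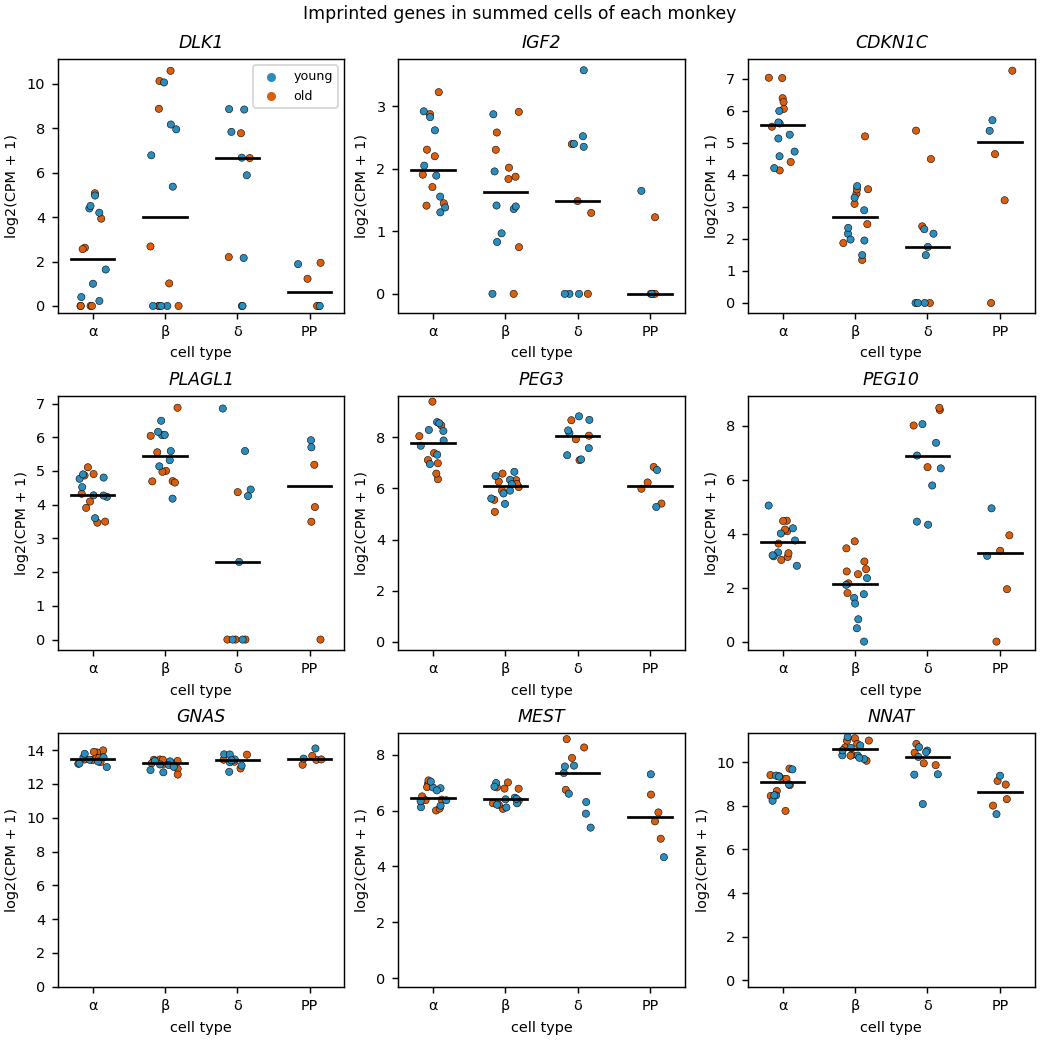
Levels of the 9 genes by cell type. Each panel shows 1 gene, with log2(CPM + 1) on the y axis and cell type on the x axis, 1 point per monkey (blue young, orange old) and a bar at the median of 16 α-cell, 16 β-cell, 11 δ-cell and 6 PP-cell sums. DLK1 spread from 0 to 1542 CPM in β-cells, CDKN1C was highest in α- and PP-cells, PEG10 in δ-cells and NNAT in β- and δ-cells.

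Of the 9 members, 7 differed between β- and α-cells, 3 higher and 4 lower in β-cells. As the members were chosen with earlier results of these data known, their counts between types are descriptions beside those of all genes. Among all 14644 genes tested, 25.6% were called in this comparison, 7.54% higher and 18.1% lower, and the median log2 difference of all genes was -0.20. Between δ- and α-cells 5 members were called, 3 higher and 2 lower, against 22.8% of all genes (3.82% higher, 19% lower, median -0.57). Between δ- and β-cells 4 were called, 2 in each direction, against 18.1% of all genes (4.99% higher, 13.1% lower, median -0.40). The split of all calls differed between the tools, and the part of scaling in this was not tested. Leaving the hormones out of library sizes gave 578 higher and 2575 lower in δ- than in α-cells. Against β-cells it gave 743 higher and 1833 lower in δ-cells. With DESeq2 the calls were 1116 higher and 1838 lower in δ- than in α-cells, in place of 559 and 2780, and 1445 higher and 1473 lower in δ- than in β-cells, in place of 731 and 1915.

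**Figure D3:**
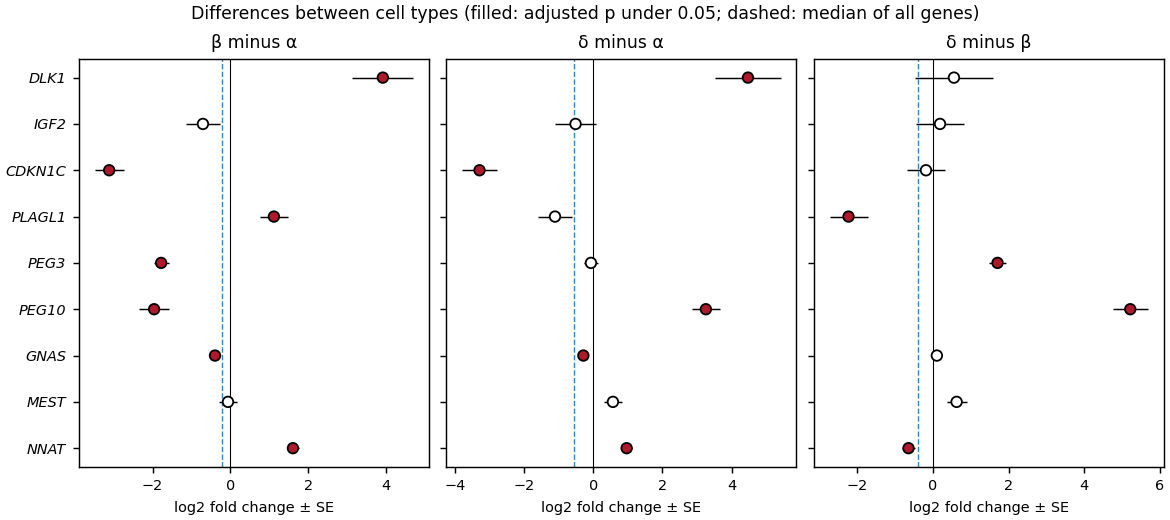
Differences of the 9 genes between cell types. The x axis gives the log2 fold change with its SE from edgeR for β minus α, δ minus α and δ minus β, with filled points where the adjusted p was under 0.05. The dashed line is the median of all genes tested (-0.20, -0.57 and -0.40), and the δ minus α value of GNAS, though below 0, lay above that median.

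CDKN1C, which encodes the cyclin-dependent kinase inhibitor p57, was an α-cell transcript among the 3 better sampled types. Its level was 16.6 to 129 CPM in α-cells (median 45.9), 1.54 to 35.7 CPM in β-cells (median 5.47) and 0 to 40.6 CPM in δ-cells (median 2.36). It was lower in β- than in α-cells in 16 of 16 monkeys, by a log2 difference of -3.11 ± 0.37 (8.65-fold, adjusted p 2.12e-09). What β-cells held was 5.55% to 53.0% of the α-cell level (median 9.18%), a share below that of GCG in the same β-cells in 12 of 16 monkeys. In δ-cells it was lower in 11 of 11 monkeys (-3.29 ± 0.50, adjusted p 1.77e-06), and -3.58 with an adjusted p of 0.0785 in clear cells. PP-cells held 0 to 151 CPM (median 32.2), more than β-cells by 2.05 ± 0.53 (adjusted p 0.00491) and more than δ-cells by 2.23 ± 0.60 (adjusted p 0.0117). Neither of these calls held when cells were thinned to 10000 UMIs (1.39, adjusted p 0.139, and 2.19, adjusted p 0.128).

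PLAGL1, a zinc finger transcription factor, leaned to β-cells. It was 17.1 to 116 CPM in β-cells (median 42.5), 10.1 to 33.5 CPM in α-cells (median 18.7) and 0 to 114 CPM in δ-cells (median 3.93), where 5 of 11 monkeys had no UMI. β-cells held more than α-cells in 16 of 16 monkeys, by 1.12 ± 0.36 (2.17-fold, adjusted p 0.0152), and δ-cells held less than β-cells in 10 of 11 (-2.23 ± 0.50, adjusted p 0.000975). In clear cells these were 0.77 (adjusted p 0.257) and -1.33 (adjusted p 0.539). The PLAGL1 level in α-cells was 21.9% to 90.7% of that in β-cells, above the share of INS in 16 of 16 monkeys.

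IGF2, a fetal growth factor, was scarce in each type. It reached 8.32 CPM in α-cells, 6.497 CPM in β-cells, 10.9 CPM in δ-cells and 2.13 CPM in PP-cells, and no type differed from another beyond the threshold. IGF2 lies beside INS in the genome, and reads that run from one to the other could not be told apart in counts.

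PEG3, a zinc finger protein known from apoptosis and from maternal behaviour in mice, was shared by α- and δ-cells. The level was 81.0 to 668 CPM in α-cells (median 217), 136 to 448 CPM in δ-cells (median 265), 32.8 to 99.1 CPM in β-cells (median 67.9) and 37.7 to 113 CPM in PP-cells (median 68.2). It was lower in β- than in α-cells in 16 of 16 monkeys (-1.78 ± 0.19, 3.43-fold, adjusted p 1.27e-10) and higher in δ- than in β-cells in 11 of 11 (1.71 ± 0.22, adjusted p 2.93e-08). In PP-cells it was lower than in α-cells in 6 of 6 (-1.73 ± 0.30, adjusted p 0.000154). All δ-cell levels exceeded all β-cell levels. The β-cell level was 12.8% to 63.1% of the α-cell level (median 27.7%), above the share of GCG in 8 monkeys and below it in the other 8. The part of GCG-bearing RNA in the β-cell level of PEG3 was not tested.

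PEG10, a gene derived from a retrotransposon, had its highest median in δ-cells. Its level there was 19.2 to 407 CPM with a median of 119 CPM, against 6.03 to 32.1 CPM in α-cells (median 11.96), 0 to 12.2 CPM in β-cells (median 3.39) and 0 to 29.8 CPM in PP-cells (median 8.71). δ-cells were higher in 11 of 11 monkeys than α-cells, by 3.26 ± 0.41 (9.56-fold, adjusted p 3.00e-08), and than β-cells, by 5.22 ± 0.46 (37.2-fold, adjusted p 1.09e-12). Both calls held in each alternative, with log2 differences of 2.58 to 4.07 and 4.43 to 6.37. Single cells carried much of it too, from 33.3% of the PEG10 UMIs of a monkey's δ-cells in young female 1 to 89.4% in old male 2. A PEG10 UMI was found in 43.8% of δ-cells, 20.3% of α-cells and 12.9% of β-cells, at median depths of 43776, 64894 and 74425 UMIs. β-cells were lower than α-cells in 15 of 16 monkeys (-1.96 ± 0.38, adjusted p 7.87e-05), with a share of the α-cell level (median 30.2%) above that of GCG in 8 of 16. PEG10 starts beside SGCE, and overlapping reads could have been split between them.

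NNAT, or neuronatin, is a small protein of the endoplasmic reticulum membrane that takes part in the processing of preproinsulin. It was 1076 to 2289 CPM in β-cells (median 1562) and 217 to 839 CPM in α-cells (median 555), with no overlap between the types. The difference was 1.61 ± 0.15 (3.05-fold, adjusted p 1.29e-12, higher in 16 of 16 monkeys). In δ-cells it was 271 to 1838 CPM (median 1217), higher than in α-cells in 10 of 11 (0.96 ± 0.17, adjusted p 1.98e-05) and lower than in β-cells in 8 of 11 (-0.64 ± 0.17, adjusted p 0.00557). The last call was lost with DESeq2 (-0.38, adjusted p 0.126) and in clear cells (-0.42, adjusted p 0.527). PP-cells, at 196 to 668 CPM, were lower than β-cells in 6 of 6 monkeys (-2.03 ± 0.24, adjusted p 5.84e-09) and than δ-cells in 5 of 5 (-1.39 ± 0.24, adjusted p 6.08e-05). The α-cell level was 20.2% to 52.8% of the β-cell level and above the share of INS in 15 of 16 monkeys. NNAT lies inside an intron of BLCAP.

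GNAS encodes the α subunit of Gs, the G protein through which the receptors for glucagon and GLP-1 raise cyclic AMP. It was 8171 to 16191 CPM in α-cells, 6009 to 11132 CPM in β-cells, 6722 to 13750 CPM in δ-cells and 8985 to 17521 CPM in PP-cells. The ranges of all 4 types overlapped. Within monkeys β-cells were lower than α-cells in 15 of 16 (-0.39 ± 0.07, 1.31-fold, adjusted p 1.82e-05), of which -0.19 remained relative to the median of all genes. The δ-cell value was -0.29 ± 0.08 against α-cells (adjusted p 0.00841), which turned to 0.28 relative to the median of all genes and was -0.02 with DESeq2 (adjusted p 0.915). That call was lost in 4 of 9 alternatives, DESeq2 among them, and in 1 of the 16 fits without 1 monkey. PP-cells exceeded β-cells by 0.40 ± 0.10 (adjusted p 0.00522), and by 0.14 after thinning (adjusted p 0.394) or 0.31 without young male 1 (adjusted p 0.0558). Several overlapping and antisense transcripts share the GNAS locus, and the files give 1 count for it.

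MEST, a member of the α/β-hydrolase family known from growing fat tissue, was the most even of the members between the main types. It was 63.1 to 134 CPM in α-cells and 65.6 to 127 CPM in β-cells, with a log2 difference of -0.06 ± 0.22 (adjusted p 0.882). In δ-cells it was 40.9 to 375 CPM, with differences of 0.57 ± 0.26 from α-cells (adjusted p 0.106) and 0.63 ± 0.27 from β-cells (adjusted p 0.0953). PP-cells were lower than δ-cells by -1.23 ± 0.38 (adjusted p 0.03). That call was lost without each of 4 monkeys in turn, old female 1 (-0.94), old female 2 (-1.15), old male 2 (-0.95) and young male 4 (-1.07).

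For PP-cells the members called were PEG3 alone against α-cells (6.29% of all genes called, 1.48% higher and 4.81% lower, median of all genes -0.49), 4 against β-cells, 2 in each direction (15.7%, 6.06% higher and 9.63% lower, median -0.32), and 6 against δ-cells, 1 higher and 5 lower (8.85%, 5.55% higher and 3.3% lower, median 0.08). With 6 monkeys, 5 of which also had δ-cells, these comparisons rested on the fewest cells. With DESeq2 the calls over all genes split into 588 higher and 768 lower in PP- than in α-cells, in place of 216 and 705, and into 1585 higher and 1323 lower in PP- than in β-cells, in place of 887 and 1410.

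Other genes imprinted in humans were counted as a list of 50, of which 38 were in the files and 32 were tested between β- and α-cells. One was higher in β-cells and 7 were lower (25% called, against 25.6% of all genes, 7.54% higher and 18.1% lower), with a median log2 difference of -0.17, close to the -0.20 of all genes. The largest differences were those of TFPI2, a serine protease inhibitor (-4.06 ± 0.55, adjusted p 6.28e-08), PHLDA2, a placental growth regulator (-3.80 ± 0.61, adjusted p 5.27e-06), and TP73, a relative of p53 (-2.80 ± 0.64, adjusted p 0.000599). All 3 were low, with medians of 8.81, 3.06 and 2.21 CPM in α-cells and under 0.5 CPM in β-cells. The gene that was higher, named after its value was seen, was OSBPL5 (2.63 ± 0.73, adjusted p 0.00519). It was low too, with medians of 1.16 CPM in β-cells and 0.196 CPM in α-cells. Between δ- and α-cells 6 of the 32 were lower and none higher (18.8% called, against 22.8% of all genes, 3.82% higher and 19% lower; median -0.49, against -0.57).

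Known partners of the members were counted in the same way, 50 listed, 46 in the files and 40 tested. Both this list and that of other imprinted genes were chosen with earlier results of these data known, so their counts are descriptions too. Between β- and α-cells 6 were higher and 13 lower (47.5% called, against 25.6% of all genes, 7.54% higher and 18.1% lower), with a median of -0.51 against -0.20. The largest differences belonged to the Gs pathway that GNAS serves: the glucagon receptor gene GCGR was higher in β-cells (4.54 ± 0.43, adjusted p 2.98e-12, median 33.8 CPM against 1.38 CPM in α-cells), as was the GLP-1 receptor gene GLP1R (4.20 ± 0.81, adjusted p 0.000148, median 0.731 CPM against 0.0206 CPM). ADCY1, an adenylyl cyclase, was lower (-4.14 ± 0.82, adjusted p 0.000216, median 0 CPM against 0.536 CPM). GLP1R and ADCY1 were thus under 1 CPM at the median in both types. GCGR was also higher in δ- than in α-cells (4.31 ± 0.51, adjusted p 4.14e-09). Of 9 Notch pathway genes tested, to which DLK1 is related, 1 was higher and 3 were lower in β-cells, or 44.4% against the 25.6% of all genes (7.54% higher, 18.1% lower). These were NOTCH2 (2.35), a receptor, and the ligands JAG1 (-1.82) and DLL1 (-1.16) and the target HES1 (-1.24), named after their values were seen. NOTCH2 and JAG1 were low, with medians of 1.99 and 0.870 CPM in β-cells and 0.308 and 4.38 CPM in α-cells. Of the 3 NNAT partners, the signal peptidase subunits SPCS1 (0.50 ± 0.13, adjusted p 0.00315) and SEC11C (0.80 ± 0.11, adjusted p 1.94e-07) were higher in β-cells, the type with more NNAT, and these were also named after their values were seen.

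Age was the main question of the study. Age and sex were fitted within each type, and age by cell type on the α- and β-cell sums with the monkey as a block. By these fits no member tested was called between old and young monkeys in any type, nor in the tests of sex, of age by sex or of age by cell type. For age, 6 of the 9 members passed the filter on low counts in δ-cells and 6 in PP-cells. CDKN1C, PLAGL1 and IGF2 were thus not tested in δ-cells, nor DLK1, PEG10 and IGF2 in PP-cells. Over all genes the calls were as few. The share called for age was 0.0% of 13482 genes in α-cells, 0.0451% of 11097 in β-cells (5 genes, none of them a member or listed gene), 0.0% of 7401 in δ-cells and 0.0% of 6564 in PP-cells, where 927, 610, 274 and 393 genes had an unadjusted p under 0.05 and DESeq2 called 26, 41, 3 and 2. For sex it was 0.0% in α- and in β-cells (786 and 446 genes unadjusted, 31 and 16 by DESeq2). For age by sex it was 0.00707% in α-cells (1 gene) and 0.0% in β-cells (793 and 492 unadjusted, 8 and 2 by DESeq2), and for age by cell type 0.0% (921 unadjusted, 14 by DESeq2). Of the 75 values of members in these tests, 8 had an unadjusted p under 0.05, and the smallest adjusted p was 0.712.

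DLK1 showed the limit that its spread sets. The old minus young difference was 0.97 ± 1.39 in β-cells (adjusted p 1) and -1.50 ± 1.45 in α-cells (adjusted p 0.875), with SEs that allow a several-fold change in either direction. The β-cell value turned to -1.59 without old male 4, whose DLK1 came almost wholly from 1 cell, and to -5.52 in clear cells. The δ-cell value was -0.61 ± 1.11 (adjusted p 0.999), which turned to 0.97 with at least 10 cells per sum and to 0.22 without old female 1. The share of β-cells with a DLK1 UMI, with each cell thinned to 10000 UMIs, was 12.4% ± 18.2 in old monkeys (SD, n = 8) and 9.87% ± 12.1 in young (SD, n = 8), a difference of 2.57 percentage points by a two-sided exact permutation test (p = 0.746). In α-cells it was 6.62% ± 11.8 against 5.03% ± 5.83, a difference of 1.59 points (exact permutation p = 0.782). Without old female 3 the β-cell difference turned to -1.77 points, and without old female 4 to -1.25 points in β-cells and -2.20 points in α-cells. Unthinned, the means were 20.7% and 18.3% in α-cells, a difference of 2.45 points, and in β-cells the difference was 2.56 points.

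None of the other members passed the test for age either, and those with an unadjusted p under 0.05 were PEG10, CDKN1C and MEST. PEG10 in β-cells was 2.48 to 12.2 CPM in old monkeys (median 5.26, 334 UMIs in all) and 0 to 4.12 CPM in young ones (median 1.87, 93 UMIs), a log2 difference of 1.69 ± 0.61 with an unadjusted p of 0.0112 and an adjusted p of 0.782. In δ-cells it was 87.7, 258, 385 and 407 CPM in the 4 old monkeys and 19.2 to 267 CPM in the 7 young (median 85.0), a difference of 1.45 ± 0.58 (adjusted p 0.999). In α-cells the PEG10 difference was 0.02 ± 0.34, and the test of whether the age difference differed between β- and α-cells gave 1.46 ± 0.67 (adjusted p 0.824). The old and young ranges overlapped in each type. CDKN1C in α-cells was 16.6 to 129 CPM in old (median 70.8) and 17.5 to 62.5 CPM in young monkeys (median 35.6), a difference of 0.86 ± 0.37 (unadjusted p 0.031, adjusted p 0.712). MEST in δ-cells was 106 to 375 CPM in old and 40.9 to 194 CPM in young monkeys, a difference of 1.05 ± 0.51 (adjusted p 0.999). PLAGL1 in the 6 PP-cell sums had a difference of -2.72 ± 1.81 (adjusted p 0.909). GNAS and NNAT differed by 0.23 ± 0.13 and -0.04 ± 0.26 in α-cells and by 0.11 ± 0.14 and 0.14 ± 0.17 in β-cells.

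**Figure D4:**
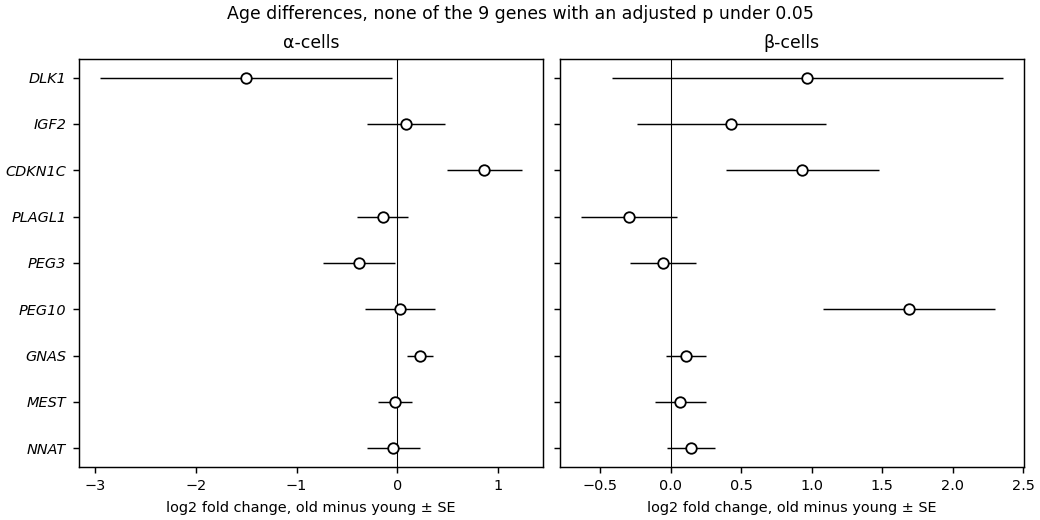
Old minus young differences of the 9 genes. The x axis gives the log2 fold change with its SE from edgeR in α-cells (left) and β-cells (right), each from 8 old and 8 young monkeys, and the line at 0 marks no difference. Open points stand for an adjusted p above 0.05, which held for all 18 values, and the DLK1 bars are the widest (SE 1.45 and 1.39).

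Between the sexes, PEG3 in α-cells was 81.0 to 383 CPM in females (median 131) and 165 to 668 CPM in males (median 286), a female minus male difference of -0.95 ± 0.36 (unadjusted p 0.0149, adjusted p 0.759). It was 81.0, 94.4, 125 and 136 CPM in old females, 122 to 383 CPM in young females, 165 to 668 CPM in old males and 202 to 372 CPM in young males. The test of whether the age difference differed between the sexes gave -1.60 ± 0.59 (unadjusted p 0.0149, adjusted p 0.872). IGF2 in α-cells was 2.26 to 8.32 CPM in females and 1.46 to 5.11 CPM in males, a difference of 0.87 ± 0.39 (adjusted p 0.83). The female and male ranges overlapped for both genes.

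The members were compared with DLK1 across monkeys in 16 relations, 8 in β-cells and 8 in α-cells. In β-cells PEG3 was lower where DLK1 was higher (Pearson's r = -0.73, Spearman's rho = -0.73 over 16 monkeys, permutation p adjusted over the 16 relations 0.0224 and 0.0302). The 6 monkeys without DLK1 lay close to old female 2 (1.02 CPM) and old male 1 (5.41 CPM). The next lowest was young female 4 at 40.5 CPM. Within the 10 monkeys with a UMI r was -0.61 (adjusted p 0.502). Without the 2 monkeys farthest from the median it was -0.70 (adjusted p 0.11), in thinned cells -0.41 and in clear cells -0.32. The relation thus did not pass the threshold within the monkeys with a DLK1 UMI, and none of the other 15 relations passed it over all 16 monkeys.

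Over the 49 sums of all types, the gene most like each member was sought among 8214 genes with a mean of at least 10 CPM, by Pearson's r of log2(CPM + 1). These values are descriptions over sums that share monkeys and differ in depth. PEG10 was closest to HHEX (0.80) and ISL1 (0.78), the first of them a transcription factor of δ-cells, and to ARFGEF3 (0.77). NNAT was closest to ZBTB38 (0.77), MYO3A (0.76) and TMEM27 (0.76), CDKN1C to LENG8 (0.81), SRRT (0.78) and TNNI3 (0.78), and PEG3 to MRAP2 (0.79), DPP6 (0.72) and a gene known only by its Ensembl identifier (0.70). PLAGL1 was close to RSPH3 (0.77) and NR1D2 (0.73), and MEST to CCT7 (0.65), CHCHD1 (0.62) and DTNBP1 (0.60). GNAS had no gene closer than 0.59, and DLK1 none closer than BEX2 (0.56), FAM111A (0.55) and EXOC6 (0.54).

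How single cells shared the transcripts differed between the members. The 5% of β-cells with the highest counts held 94.7% of the DLK1 UMIs, 41.1% of the PLAGL1 UMIs, 31.1% of the MEST UMIs, 20.4% of the NNAT UMIs and 15.1% of the GNAS UMIs. In α-cells the top 5% held 57.0% of the CDKN1C UMIs, 31.1% of the PEG3 UMIs and 14.7% of the GNAS UMIs. A median β-cell held 658 GNAS UMIs, 94 NNAT UMIs, 3 MEST UMIs, 1 PLAGL1 UMI and no DLK1 UMI, and a median α-cell held 7 PEG3 UMIs and no CDKN1C UMI. The part of sampling in these shares, at medians this low, was not tested.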

How the data were processed

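Single islet cells of 16 monkeys were sequenced with a modified STRT protocol. Reads were trimmed by the authors and mapped to Macaca_fascicularis_5.0 with TopHat2 2.0.12 (CASAVA 1.8 is also named in the submitters' processing notes), unique alignments were assigned to genes with htseq-count, duplicate UMIs were collapsed, and the authors deposited raw UMI counts per gene and cell. Strand was not given in the sources used here. Age and sex come from the series' key of monkeys. The members and gene lists were chosen with earlier results of these data known.

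Counts were summed per monkey and type (at least 5 cells). The 95 spike-ins (5.41% of the UMIs of kept cells) stayed out of library sizes, and the 4 hormones stayed out of the tests only. Another 14 rows, listed after the spike-ins, were not removed and are among the 21041 genes. The study's filter on mapping rate was not applied, and doublets were not called. Tests were run with edgeR 4.0.16 (TMM, filterByExpr, quasi-likelihood, threshold 0.05) in R 4.3.3 with limma 3.58.1, with the monkey as a block between types and sex as a term for age. Those for type and age were run on simulated counts with the same relative spread for every gene and no added monkey effect. A spread like that of DLK1 was not simulated. DESeq2 1.42.0 was an alternative, among those in the closing section. Shares and correlations used Python 3.11.15 (scipy 1.17.1), with cells thinned to 10000 UMIs for shares (24 young and 21 old cells were shallower and left out) and 100000 permutations for correlations. Sums held 206257 to 27439498 UMIs. Named genes were the members, listed genes called for age or sex, the 3 largest called β minus α differences of each list and the 3 genes most like each member, of which 1 is not reported here. Gene sequences and coordinates are not given, since the table at hand is of another assembly.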

Additional observations from a re-analysis of the deposited data

Results flagged for a closer look

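Of 63 groups of 4 to 10 monkeys, given by a member, a type and an age, 2 held a monkey whose gap to the rest exceeded Dixon's 95% critical value. For normally spread values without ties, chance flags about 1 in 20 groups, a rate that sums with many zeros need not follow. IGF2 in the PP-cells of old female 2 was 1.33 CPM, from 2 UMIs in 33 cells, and the other 3 old monkeys were at 0. PLAGL1 in the δ-cells of old female 2 was 19.7 CPM, from 11 UMIs in 11 cells, and the other 3 old monkeys were at 0. Both are levels of few UMIs, and with the other 3 monkeys at 0 any UMI in the remaining one exceeds the critical value.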

How the results depend on the processing

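Of 221 recomputed values of the 27 called member differences between types, 205 kept direction and call, 15 lost the call and 1 reversed (DLK1 between δ- and α-cells in clear hormone cells, -0.32). Leaving out 1 monkey at a time gave 432 values, of which 9 lost the call and none reversed. With the monkey removed as a replicate block, GNAS between δ- and α-cells was -0.24 (adjusted p 0.0921) and the calls between PP- and δ-cells were 2250 in place of 1296. They were 2114 with DESeq2 and 738 after thinning. In clear cells the calls of δ- against α-cells and against β-cells were 1113 each, in place of 3339 and 2646, and leaving out 1 monkey moved those of PP- against α-cells between 542 (without young male 4) and 1004.

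Counts of genes called for age moved with the tool, the filter and the monkeys used. In α-cells they were 26 with DESeq2 and 3 with a replicate block of sex and number, in place of 0. In β-cells, in place of 5, they were 21 without a filter on low counts, 41 with DESeq2, 1 in clear cells, 2 without cells above the 95th percentile of UMIs, 3 after thinning, 11 with the replicate block, and 2 to 8 without 1 monkey. In δ-cells, in place of 0, they were 2 without the filter, 3 with DESeq2, 1 with over 2000 genes and 20000 UMIs, 2 with at least 10 cells, 2 with the replicate block, and 0 to 1 without 1 monkey. In PP-cells, in place of 0, they were 10 without the filter, 2 with DESeq2, 1 without the sex term, and 0 to 10 without 1 monkey. For sex they were 31 with DESeq2 in α-cells (0 to 1 without 1 monkey), and 28 without the filter, 16 with DESeq2 and 4 without the cells above the 95th percentile in β-cells (0 to 2). For age by sex they were 8 with DESeq2 in α-cells in place of 1 (1 to 2), and 1 without the filter and 2 with DESeq2 in β-cells (0 to 1). For age by type they were 14 with DESeq2 and 6 after thinning (0 to 1). The cause was not tested.

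Of 1904 age, sex and interaction values of members over 27 settings, 1 was called, DLK1 for age in δ-cells with the replicate block (-4.47, adjusted p 0.0187). Monkey numbers did not pair the animals: deviations of same-numbered monkeys correlated by -0.07 to 0.18 in α-cells and -0.15 to 0.12 in β-cells. The same value was 0.97 with at least 10 cells, and -2.78 to 0.22 without 1 monkey. DLK1 for age in β-cells reversed in clear cells (-5.52), without cells above the 95th percentile (-1.44), after thinning (-0.20) and with the replicate block (-1.48), and ranged from -1.59 to 1.84 without 1 monkey. The DLK1 share for age ranged from -2.20 to 2.87 points in α-cells and from -1.77 to 5.76 points in β-cells without 1 monkey. DLK1 against PEG3 fell to -0.70 without the 2 farthest monkeys, -0.61 in monkeys with a DLK1 UMI (chosen after seeing the data), -0.41 after thinning and -0.32 in clear cells. DLK1 between PP- and β-cells lost its call with DESeq2 (-2.79, adjusted p 0.149) and without cells above the 95th percentile (-4.02, adjusted p 0.0995). Depth limits δ- and PP-cells most, since their smallest sums held 206257 and 208618 UMIs.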
